A study of Homo sapiens with 32 samples.

Results

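The 10 genes described here encode cell-surface receptors for Wnt proteins: the co-receptors LRP5 and LRP6 and the Frizzled receptors FZD1 to FZD8. They are 10 of the 35238 genes measured by RNA sequencing in 4 human endometrial cancer cell lines, and were taken by name. LRP5 was singled out because it was among the strongest falls when both drugs were combined, so the difference between combination and vehicle is given for every receptor as a description without a test. All 10 passed the filter on low values (more than 1 CPM, reads scaled to the library total, in at least 2 libraries).

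Ishikawa cells carry wildtype CTNNB1, the gene of beta-catenin. The other lines, Ishikawa-S33Y, SNGM and HEC265, are CTNNB1-mutated, and Ishikawa-S33Y is the mutated counterpart of Ishikawa, as its name gives. Cells were treated for 24 h with vehicle (0.1% DMSO), with paclitaxel, a taxane that stabilises microtubules, with SM08502, an inhibitor of the CDC-like kinases that phosphorylate splicing factors, or with both drugs. Each drug was given at its IC50 for viability in that line: Ishikawa received 11 nM paclitaxel and 80 nM SM08502, Ishikawa-S33Y 6 and 85 nM, SNGM 11.7 and 350.7 nM, and HEC265 5.6 and 149 nM. Dose therefore differed by line, as did RNA input, which was 350 ng for Ishikawa and 500 ng for the other lines, and their part cannot be told apart from that of the line. Every group held 2 libraries from cells plated in duplicate, so p-values measure the spread between such platings. Wildtype CTNNB1 is represented by Ishikawa alone, and whether Ishikawa-S33Y came from 1 clone is not given in the sources used here.

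Wnt proteins are secreted, lipid-modified ligands that bind the extracellular cysteine-rich domain of a Frizzled receptor. In canonical signalling the ligand joins Frizzled to LRP5 or LRP6, whose phosphorylated tail draws Axin to the membrane and spares beta-catenin from degradation. Activating mutations of CTNNB1 stabilise beta-catenin below the receptors and are frequent in endometrioid endometrial cancer. Frizzleds also signal without LRP5 or LRP6, as FZD3 and FZD6 do in planar cell polarity.

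Per RefSeq on build GRCh38.p14, LRP5 lies at chr11:68298412-68449275 and LRP6 at chr12:12116025-12267044. The co-receptor genes span 150864 and 151020 bases, whereas FZD2, FZD7 and FZD8 span 3779, 4587 and 4050 bases. Promoter windows are given for 5 of the 10 genes, LRP5, FZD1, FZD4, FZD5 and FZD8. Those of LRP6, FZD2, FZD3, FZD6 and FZD7 are not given here, and their absence does not mean that no promoter sequence could be matched. LRP5, which fell, and FZD5, which passed no test of SM08502 against paclitaxel or vehicle, are shown in full as examples. The windows of FZD1, FZD4 and FZD8 are summarised below the sequences. Each sequence is the 250 bases before the RefSeq start, written 5′ to 3′, and capitals mark GC boxes (GGGCGG, or CCGCCC on the other strand, overlapping matches counted).
LRP5 promoter, chr11:68312341-68312590, plus strand: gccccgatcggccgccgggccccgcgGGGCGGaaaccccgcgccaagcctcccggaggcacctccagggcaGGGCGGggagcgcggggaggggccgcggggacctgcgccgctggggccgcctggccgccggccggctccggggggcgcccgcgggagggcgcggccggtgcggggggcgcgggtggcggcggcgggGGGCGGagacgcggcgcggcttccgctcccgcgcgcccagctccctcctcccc
FZD5 promoter, chr2:207769907-207770156, minus strand: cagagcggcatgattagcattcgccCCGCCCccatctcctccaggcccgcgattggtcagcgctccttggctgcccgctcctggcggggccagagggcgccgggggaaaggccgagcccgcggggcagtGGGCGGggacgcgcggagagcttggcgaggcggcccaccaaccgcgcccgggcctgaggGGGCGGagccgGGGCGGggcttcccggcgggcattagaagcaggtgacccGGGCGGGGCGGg
The start used for LRP5 lies inside the gene's annotated span, downstream of its outermost annotated start. G and C made up 87.2% of the LRP5 window and 76.8% of the FZD5 window, against a median of 58% over 35116 RefSeq promoters, and 99.9% of those promoters held less than LRP5. The LRP5 window held 3 GC boxes and the FZD5 window 6, while 42.6% of all promoters held at least 1. Neither window held a TATA box (TATAAA, either strand; 10.7% of promoters) or the TCF/LEF core (CTTTGA, either strand; 11.2% of promoters), the letters bound by the partners of beta-catenin. The other windows, of FZD4, FZD1 and FZD8, held 80.8%, 65.2% and 65.2% G and C, and 6, 1 and 3 GC boxes. FZD8 held 1 TATA box. These receptors were called lower with SM08502 than with paclitaxel in the mean over lines, and FZD1 and FZD8 held less G and C than FZD5. All these matches describe the letters of the windows and were not tested against the drug responses.

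Depth was 13026400 to 34127623 reads in 30 libraries. Replicate 2 of the combination was shallower in SNGM (1607038 reads) and Ishikawa-S33Y (2991041 reads), and LRP5 was counted there with far fewer reads, down to 24 in SNGM. Of 7 epithelial markers, all had a median above 1 CPM in Ishikawa, Ishikawa-S33Y and SNGM, and 6 did in HEC265, where ESR1 did not. Leukocyte markers summed to at most 5.65 CPM and endothelial markers to at most 10.6 CPM in any library. CPM is not corrected for transcript length, so levels below are compared between samples within a gene and not between genes.

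LRP5 mRNA was lower with SM08502, alone or combined, than with vehicle or paclitaxel in every line. The gap between combination and vehicle libraries goes with how LRP5 was chosen. It is described below by line and is not counted as support. Against paclitaxel alone, SM08502 alone lowered LRP5 by 1.52 ± 0.16 (SE) in log2(CPM + 1) averaged over the lines, a 2.87-fold difference on that scale. The estimate itself uses neither the vehicle nor the combination libraries by which LRP5 was chosen. Its SE and adjusted p rest on a spread shared by all 32 libraries, those included. In that comparison LRP5 was the seventh lowest of 17011 tested genes, and the limma adjusted p was 4.55e-07. LRP6, FZD2, FZD3, FZD5 and FZD7 did not pass the same test.

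In Ishikawa-S33Y, LRP5 stood at 84.0 and 79.4 CPM on vehicle and at 76.5 and 73.3 CPM on paclitaxel. On SM08502 it stood at 14.9 and 12.8 CPM, and on the combination at 14.0 CPM and, in the shallow library, 9.36 CPM. All SM08502 and combination libraries lay far below all vehicle and paclitaxel libraries, with no overlap. SM08502 left 18.5% of the paclitaxel level, a log2 difference of -2.36 ± 0.33 (SE, limma adjusted p = 2.55e-05), the largest of the 4 lines.

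In HEC265, where LRP5 was highest on vehicle, both vehicle libraries held 118 CPM and the paclitaxel libraries 117 and 112 CPM. The SM08502 libraries held 41.7 and 38.8 CPM and the combination libraries 35.1 and 27.5 CPM. The groups with SM08502 again did not overlap the groups without it. The SM08502 level was 35.1% of the paclitaxel level, a log2 difference of -1.49 ± 0.33 (SE, limma adjusted p = 0.00441). Without replicate 2 of SM08502 the difference was -1.44 and the limma adjusted p 0.0510.

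Ishikawa had the lowest mean LRP5 of the lines in each of the 4 treatment groups, and its paclitaxel duplicates were far apart. The vehicle libraries held 22.5 and 29.3 CPM, the paclitaxel libraries 39.1 and 16.7 CPM, the SM08502 libraries 10.7 and 6.75 CPM, and the combination libraries 7.02 and 7.69 CPM. All 4 libraries with SM08502 lay below all 4 without it. SM08502 against paclitaxel gave a log2 difference of -1.48 ± 0.33 (SE, limma adjusted p = 0.00737). This call depended on single libraries. The difference was -0.89 (limma adjusted p = 0.124) without replicate 1 of paclitaxel and -1.19 (limma adjusted p = 0.110) without replicate 2 of SM08502, and the adjusted p was 0.242 when Ishikawa alone set the spread. A score of long against short transcripts (30 long genes minus 84 genes of ribosomal proteins, as mean log2 levels; called the length score below) was -1.07 and -2.61 in replicates 1 and 2 of paclitaxel and -1.79 and -2.59 in those of SM08502, so the replicate with more LRP5 also had the higher score in both groups. With the score as a covariate the Ishikawa difference was -1.21 (limma adjusted p = 0.00152).

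SNGM showed the smallest difference at the highest SM08502 dose. Its vehicle libraries held 48.1 and 66.6 CPM and its paclitaxel libraries 49.3 and 77.4 CPM. The SM08502 libraries held 36.5 and 35.5 CPM, below all of these without overlap. SM08502 left 56.8% of the paclitaxel level, and the log2 difference of -0.76 ± 0.33 (SE, 95% interval -1.44 to -0.09) did not pass (limma adjusted p = 0.205). It did pass with limma voom on recovered reads (-0.78, adjusted p = 0.0369) and with the length score as covariate (-0.73, adjusted p = 0.0345). The combination libraries held 33.2 CPM and, in the shallow library, 14.9 CPM.

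**Figure D1:**
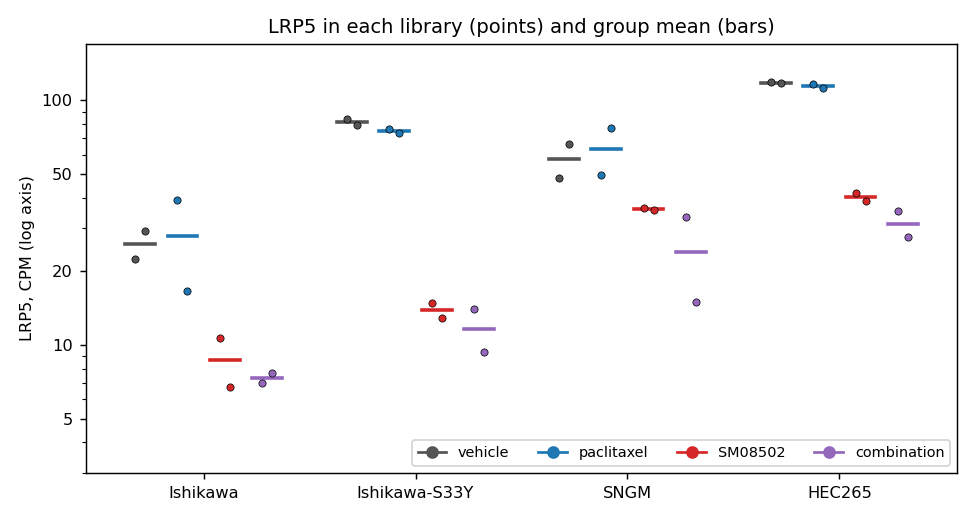
LRP5 in CPM on a log axis for every library, grouped by cell line and coloured by treatment; points are the 2 libraries of a group and bars their mean. In all 4 lines the SM08502 and combination points lie below the vehicle and paclitaxel points, with the widest gap in Ishikawa-S33Y and the narrowest in SNGM. LRP5 was chosen by its fall from vehicle to combination, so the gap between those points goes with the choice.

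The size of the LRP5 difference between SM08502 and paclitaxel was compared between lines with interaction terms. The difference was smaller in SNGM than in Ishikawa-S33Y by 1.59 ± 0.46 in log2 (SE, limma adjusted p = 0.0384), where 2.59% of all genes were called in that direction. That call held in 7 of 18 alternatives and was lost without any 1 of 7 of the 8 libraries, at adjusted p up to 0.193 and a lowest value of 1.27 without replicate 1 of paclitaxel in SNGM. Ishikawa-S33Y differed from Ishikawa by -0.87 ± 0.46 (limma adjusted p = 0.395), and HEC265 from Ishikawa-S33Y by 0.87 ± 0.46 (adjusted p = 0.375), neither of which passed; the latter did with the spread of those lines alone (limma adjusted p = 0.00910). The interval for Ishikawa-S33Y against Ishikawa ran from -1.83 to 0.08, so these libraries do not show that Ishikawa-S33Y and Ishikawa responded alike.

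Against vehicle, the values that chose LRP5 were a combination difference of -2.73 in Ishikawa-S33Y, -1.89 in HEC265, -1.68 in Ishikawa and -1.30 in SNGM. Their mean of -1.90 was the fourth lowest of 17011 genes. Without the shallow library the SNGM value was -0.75, and without both shallow libraries the mean was -1.70. SM08502 alone, read against the same vehicle libraries, gave -2.48, -1.53, -1.49 and -0.64 in the same order, and paclitaxel alone gave values between -0.12 and 0.13. The share of the vehicle level left by SM08502 alone was 17.0% in Ishikawa-S33Y, 34.1% in HEC265, 33.7% in Ishikawa and 62.8% in SNGM, and by the combination 14.3%, 26.5%, 28.4% and 42.0%. For the other 9 receptors the same untested difference between combination and vehicle ran from -1.19 for FZD2 in HEC265 to 0.58 for FZD7 in SNGM.

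LRP5L, a short gene with sequence nearly identical to part of LRP5, could share reads with it, and the counting of such reads is not given in the sources used here. It ranged from 1.12 to 7.69 CPM over the 32 libraries and differed by 0.04 ± 0.09 (SE) between SM08502 and paclitaxel (limma adjusted p = 0.794). That small value changed sign in 4 alternatives, down to -0.03.

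LRP6, the other co-receptor, was not called with SM08502 against paclitaxel or vehicle in the mean over lines. Averaged over lines it differed by 0.10 ± 0.06 (SE, 95% interval -0.03 to 0.23) between SM08502 and paclitaxel (limma adjusted p = 0.226), and it was called higher in 2 of 25 alternatives: at 0.17 (adjusted p = 0.00531) without replicate 1 of paclitaxel in Ishikawa, and at 0.14 (adjusted p = 0.0372) with the length score as covariate. In Ishikawa-S33Y the vehicle libraries held 168 and 169 CPM, the paclitaxel libraries 167 and 173 CPM, the SM08502 libraries 205 and 207 CPM, and the combination libraries 210.0 and 225 CPM. There the libraries with SM08502 lay above all others. The difference of 0.28 ± 0.12 between SM08502 and paclitaxel in that line did not pass with the spread of all lines (limma adjusted p = 0.103) and passed with the spread of Ishikawa-S33Y alone (adjusted p = 0.00527). In Ishikawa, SNGM and HEC265, LRP6 stayed between 77.7 and 118 CPM in every library, and the treatment groups overlapped in Ishikawa and in the single-drug groups of SNGM. The SNGM combination libraries, at 110.8 and, in the shallow library, 117.6 CPM, lay above the other SNGM libraries. In HEC265 the SM08502 libraries (100.2 and 101.9 CPM) lay above those of vehicle (93.7 and 96.6) and paclitaxel (90.9 and 92.2). The HEC265 combination libraries held 94.4 and 102.7 CPM and overlapped vehicle.

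Among all 10 receptors, 5 were called in the mean over lines between SM08502 and paclitaxel, and all 5 were lower with SM08502; 14.2% of all tested genes were called lower. The median over the 10, the chosen LRP5 included, was -0.18, against 0.03 over all 17011 genes. Over the 9 receptors other than LRP5 the median was -0.12, and 4 of the 9 were called lower. These were FZD8, FZD6, FZD1 and FZD4, with differences from -0.24 to -0.40, so each was several times smaller than that of LRP5 on the log2 scale. By line, 1 receptor was called in Ishikawa (LRP5; 3.8% of genes called lower), 1 in Ishikawa-S33Y (LRP5; 9.76%), 1 in SNGM (FZD4; 3.57%) and 2 in HEC265 (LRP5 and FZD2; 4.93%). These counts by line moved with single libraries and settings. The share of all genes called under each alternative is not given here, so the changed counts are not read as particular to the receptors. In Ishikawa-S33Y 1 was called whichever single library was left out, and 2 with the length score as covariate or with the spread of that line alone. In Ishikawa 5 were called without replicate 2 of paclitaxel, 4 without replicate 1 of SM08502, and 0 without replicate 1 of paclitaxel, without replicate 2 of SM08502 or with the spread of that line alone. In SNGM 0 were called without any 1 of the 4 libraries, and in HEC265 0 without replicate 2 of SM08502 and 1 without any of the other libraries, while limma voom called 4 in each of these lines. Against vehicle, 6 of the 9 receptors other than LRP5 were lower with SM08502 in the mean over lines (15.8% of genes called lower): FZD1, FZD2, FZD4, FZD6, FZD7 and FZD8. That comparison shares its vehicle libraries with the one that chose LRP5.

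**Figure D2:**
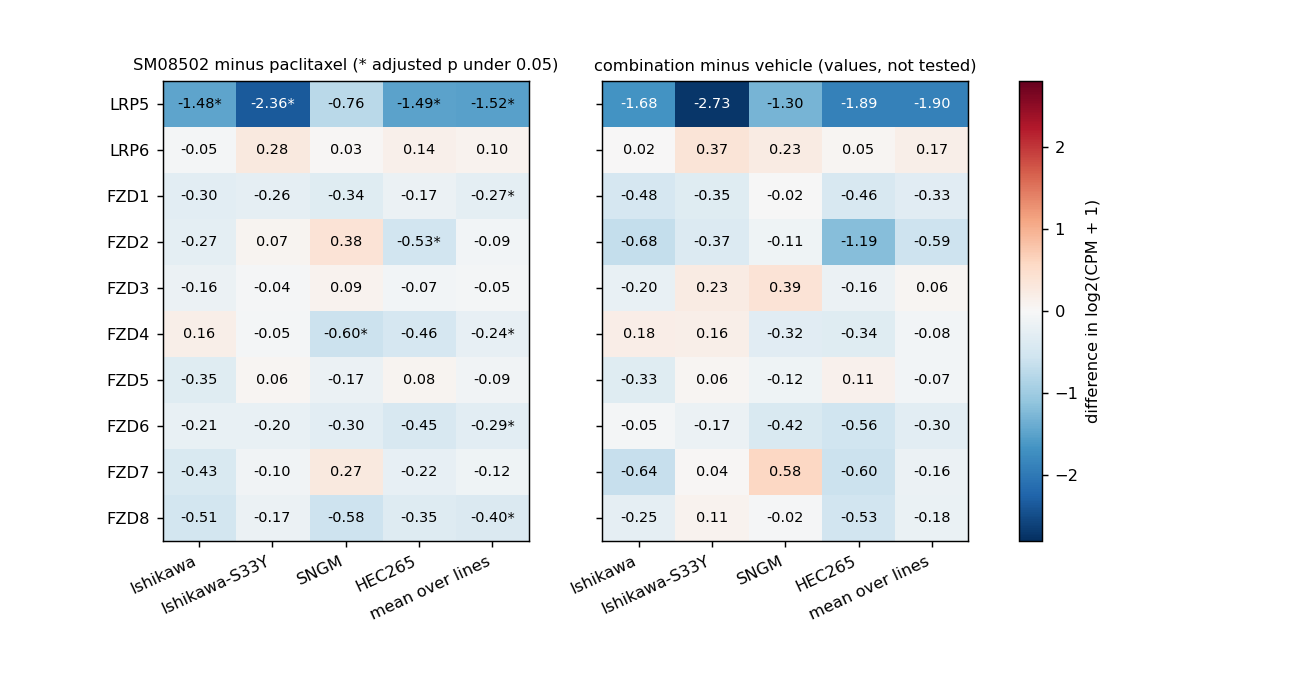
Difference in log2(CPM + 1) of each receptor for SM08502 minus paclitaxel (left, stars mark adjusted p under 0.05) and combination minus vehicle (right, values without a test), by line and averaged over lines. The LRP5 row is the darkest in every column, down to -2.73, while the left panel's other rows stay between -0.60 and 0.38.

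FZD1, FZD2 and FZD7 form a subfamily of closely related Frizzleds that couple to beta-catenin signalling. FZD1 differed by -0.27 ± 0.09 (SE) between SM08502 and paclitaxel over the lines (limma adjusted p = 0.0218). In Ishikawa-S33Y it stood at 35.8 and 36.6 CPM on paclitaxel and at 29.4 and 30.7 CPM on SM08502, and in HEC265 at 23.2 and 23.6 against 20.53 and 20.79 CPM. These groups did not overlap, whereas in Ishikawa they did (21.5 and 30.6 against 17.8 and 24.2 CPM). The FZD1 call was lost without any of 3 libraries: replicate 1 of paclitaxel in Ishikawa (-0.21, limma adjusted p = 0.0604), replicate 2 of SM08502 in Ishikawa (-0.22, adjusted p = 0.0649) and replicate 1 of SM08502 in SNGM (-0.25, adjusted p = 0.0550).

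FZD2 gave values of opposite sign in HEC265 and SNGM. In HEC265 it fell from 14.6 and 16.3 CPM on vehicle to 7.96 and 8.79 CPM on SM08502, a log2 difference of -0.81 ± 0.16 (SE, limma adjusted p = 0.00114; 5.39% of genes called lower), and stood at 5.64 and 6.85 CPM on the combination. In Ishikawa it fell from 26.6 and 27.5 to 14.6 and 18.2 CPM, by 0.70 on the log2 scale (SE 0.16, limma adjusted p = 0.00441; 8.68% called lower), a call lost without replicate 2 of SM08502 (-0.55, adjusted p = 0.0862) and with the spread of Ishikawa alone (adjusted p = 0.118). In SNGM the SM08502 libraries held 28.9 and 32.5 CPM, overlapping the vehicle libraries at 28.3 and 32.3 CPM and above the paclitaxel libraries at 22.7 and 23.9 CPM. SM08502 minus paclitaxel was thus -0.53 ± 0.16 in HEC265 (limma adjusted p = 0.0317) and 0.38 ± 0.16 in SNGM, which did not pass, though it did with limma voom on recovered reads (0.40, adjusted p = 0.0324). The difference between those lines was -0.91 ± 0.22 (limma adjusted p = 0.0433; 0.635% of genes called in that direction). The HEC265 call was lost without any 1 of its 4 libraries (-0.46 to -0.60, adjusted p up to 0.239), and the call between lines held in 8 of 18 alternatives and was lost without any 1 of its 8 libraries (-0.83 to -0.99, adjusted p up to 0.208).

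FZD7 fell in Ishikawa, where it went from 22.2 and 25.4 CPM on vehicle to 12.5 and 16.8 CPM on SM08502 without overlap (-0.67 ± 0.15 in log2, limma adjusted p = 0.00559). That call was lost without replicate 2 of vehicle (-0.58, adjusted p = 0.0751), without replicate 2 of SM08502 (-0.47, adjusted p = 0.129) and with the spread of Ishikawa alone (adjusted p = 0.148). In SNGM the SM08502 libraries held 14.8 and 16.7 CPM and the vehicle libraries 11.96 and 13.86 CPM, so the order was the opposite there. The mean over lines against vehicle was -0.21 ± 0.08 (limma adjusted p = 0.0374) and kept its call in 13 of 25 alternatives, with -0.16 (adjusted p = 0.110) without replicate 2 of SM08502 in Ishikawa as the weakest.

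FZD4, the receptor for Norrin as well as for Wnts, signals together with LRP5 in retinal vessels. In SNGM, the line with the most FZD4, it fell from 54.0 and 57.9 CPM on paclitaxel to 35.7 and 37.6 CPM on SM08502, a log2 difference of -0.60 ± 0.15 (SE, limma adjusted p = 0.0201), and the combination libraries held 41.3 and 48.5 CPM. In HEC265 it fell from 10.1 and 11.2 CPM on vehicle to 7.06 and 7.19 CPM on SM08502 (-0.52 ± 0.15, limma adjusted p = 0.0240). These groups did not overlap. In Ishikawa the SM08502 libraries, both near 14.2 CPM, lay inside the spread of the paclitaxel libraries (12.8 ± 3.11 CPM, SD, n = 2). The SNGM call was lost without any 1 of its 4 libraries, at adjusted p from 0.0733 to 0.178, and with the spread of SNGM alone (adjusted p = 0.107), the HEC265 call likewise at 0.0717 to 0.188, and the mean over lines of -0.24 ± 0.08 (limma adjusted p = 0.0192) without replicate 1 of paclitaxel in Ishikawa (-0.18, adjusted p = 0.0530) or in HEC265 (-0.22, adjusted p = 0.0529). FZD4 overlaps PRSS23, a secreted protease gene, in the RefSeq annotation, and the strand of counting is not given in the sources used here. PRSS23 was lower too, by 0.28 ± 0.07 on the log2 scale in the mean over lines (limma adjusted p = 0.00236). Whether reads were shared between the 2 genes was not tested.

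FZD5 and FZD8 are another closely related pair. FZD8, a Frizzled whose structure bound to a Wnt is known, was lower with SM08502 than with paclitaxel by 0.40 ± 0.11 on the log2 scale (SE, limma adjusted p = 0.00924), a call kept in all 25 alternatives. In SNGM it stood at 9.96 and 10.4 CPM on paclitaxel and at 5.74 and 7.26 CPM on SM08502, and in HEC265 at 7.94 and 8.98 against 6.12 and 6.70 CPM. These groups did not overlap in SNGM, HEC265 or Ishikawa-S33Y and overlapped in Ishikawa. On the combination, FZD8 was not lower in every line. Its mean there was 109% of vehicle in Ishikawa-S33Y and 101% in SNGM, each with a shallow library, but 82.8% in Ishikawa and 65.4% in HEC265. FZD5 differed by -0.09 ± 0.10 over the lines (95% interval -0.31 to 0.12, limma adjusted p = 0.537), and that value changed sign with the length score as covariate (0.04). In HEC265 its SM08502 libraries, at 49.8 and 50.8 CPM, lay just above its paclitaxel libraries at 47.3 and 47.6 CPM, and in Ishikawa the ranges overlapped broadly.

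FZD3 and FZD6 are the Frizzleds linked to planar cell polarity. FZD6 was lower with SM08502 by 0.29 ± 0.08 on the log2 scale against paclitaxel (limma adjusted p = 0.00620), in all 25 alternatives. Its clearest separation was in HEC265, with 151 and 162 CPM on paclitaxel, 159.8 and 160.3 CPM on vehicle, and 111 and 118 CPM on SM08502 (-0.48 ± 0.15 against vehicle, limma adjusted p = 0.0401; a call held in 7 of 14 alternatives). It was lost without any 1 of the 4 libraries, at adjusted p from 0.127 to 0.210, and also with no filter on low values (limma adjusted p = 0.0776), quantile normalization (0.0517) or no intensity trend (0.0534). FZD3 differed by -0.05 ± 0.06 against paclitaxel (95% interval -0.16 to 0.07, adjusted p = 0.577) and by -0.03 ± 0.06 against vehicle (adjusted p = 0.728).

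**Figure D3:**
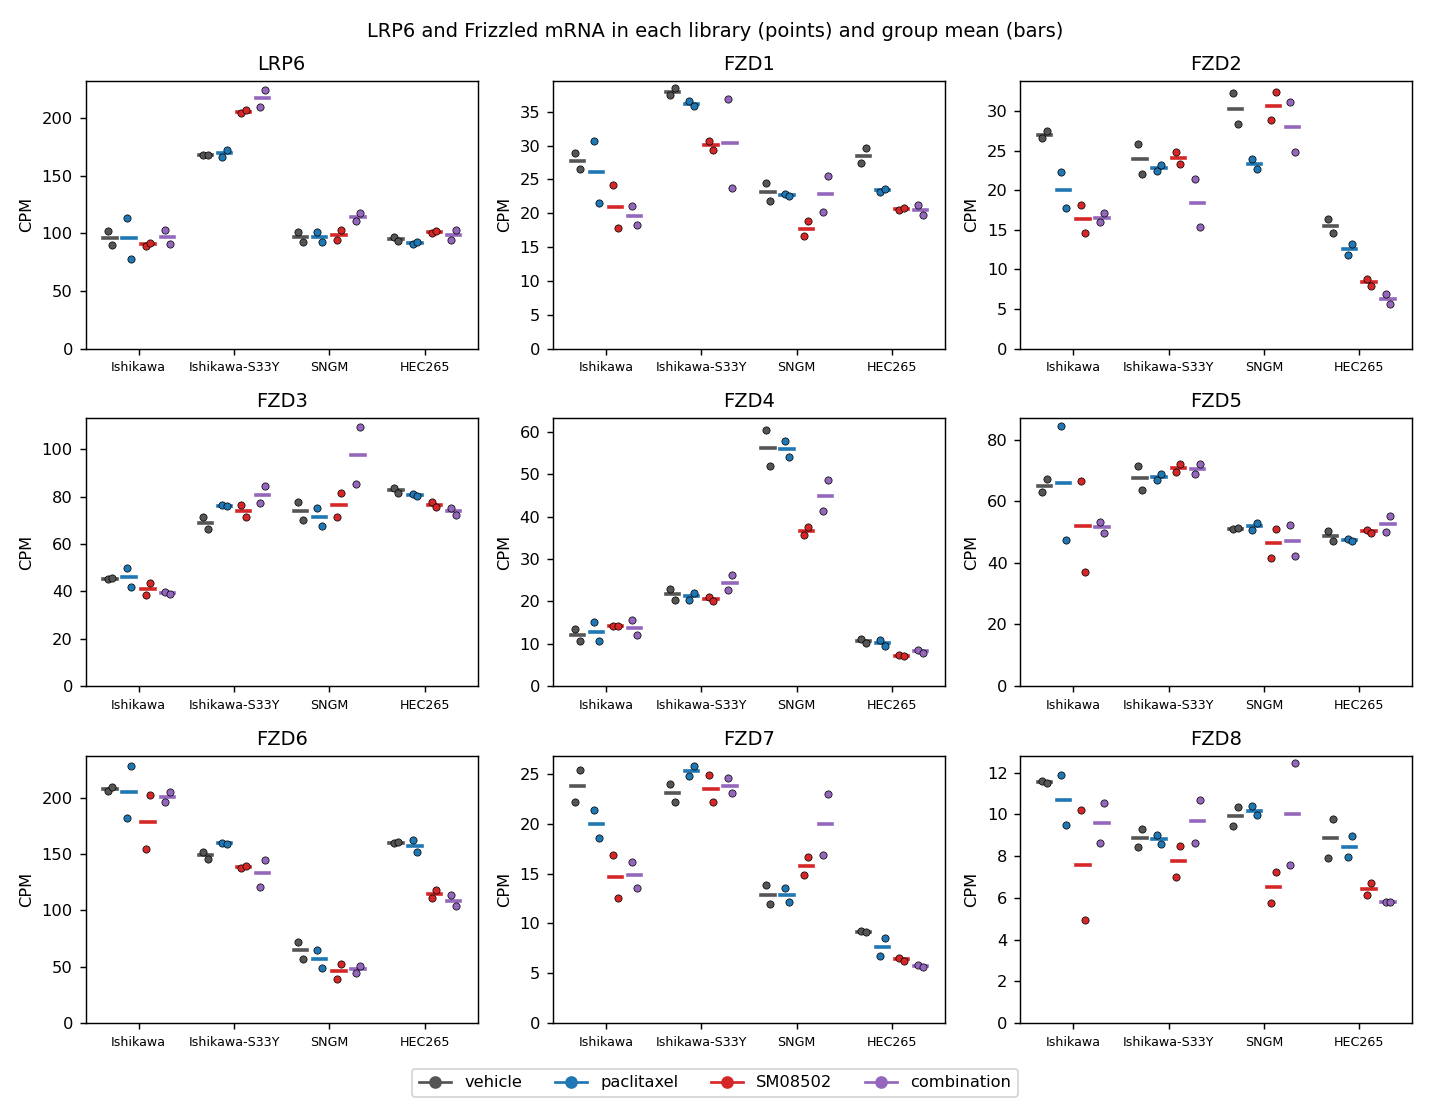
LRP6 and FZD1 to FZD8 in CPM for every library, 1 panel per gene, each with its own linear axis from 0; points are the 2 libraries of a group and bars their mean, coloured by treatment. LRP6 reaches 225 CPM in the combination group of Ishikawa-S33Y, FZD2 reads as low as 5.64 CPM in HEC265, and the Ishikawa duplicates of FZD5 on paclitaxel and SM08502 are far apart.

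With paclitaxel alone, none of the 9 receptors other than LRP5 was called against vehicle in the mean over lines (0 of 9 with limma, where 0% of all genes were called). An unadjusted limma p under 0.05 was reached by 1 of 9, and limma voom also called 0. The receptor with the low unadjusted p was FZD2, at -0.28 ± 0.08 (SE, limma adjusted p = 1), and the highest value was 0.02 for FZD3. Adding paclitaxel to SM08502 likewise gave 0 of 9 calls with limma and with voom (0.047% of all genes called), with 3 of 9 at an unadjusted p under 0.05. These included FZD2 at -0.22 ± 0.08 (adjusted p = 0.280) and FZD8 at 0.26 ± 0.11 (adjusted p = 0.379). Without replicate 1 of the combination in SNGM, which leaves the shallow library alone in its group, both passed, at -0.26 (adjusted p = 0.0353) and 0.34 (adjusted p = 0.0428).

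On vehicle the lines differed in their receptors. Ishikawa-S33Y against Ishikawa on vehicle gave 5 receptors called higher (20% of genes called higher) and 1 lower (28.2% called lower). The median of the 10 was 0.25, and 0.05 over the 9 other than LRP5, against -0.05 over all genes. LRP5 was higher by 1.63 ± 0.33 (SE, limma adjusted p = 2.99e-04), at 84.0 and 79.4 against 22.5 and 29.3 CPM. LRP6 was higher by 0.81 ± 0.12 (adjusted p = 1.39e-05), at about 168 CPM against 89.8 and 102 CPM. Both co-receptors were thus higher in Ishikawa-S33Y, without overlap.

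FZD4 (0.80 ± 0.15), FZD3 (0.59 ± 0.11) and FZD1 (0.44 ± 0.17) were also higher in Ishikawa-S33Y and FZD6 was lower (-0.48 ± 0.15, limma adjusted p = 0.0141). FZD1 was called in 7 and FZD6 in 9 of 14 alternatives; FZD1 was lost without any 1 of the 4 libraries (0.38 to 0.50, adjusted p up to 0.171) and FZD6 without any of 3 (-0.45 to -0.49, adjusted p up to 0.0763). Vehicle length scores were -2.28 and -1.84 in Ishikawa and -0.80 and -0.95 in Ishikawa-S33Y, so the score moved with the line. With it as covariate, the differences were 0.72 for LRP5 (limma adjusted p = 0.0612), 0.25 for FZD1 (adjusted p = 0.391) and -0.17 for FZD6 (adjusted p = 0.465), while LRP6, FZD3 and FZD4 kept their calls. A list of 5 fibroblast markers, led by COL1A1, summed to 714 to 1164 CPM in Ishikawa-S33Y and 31.4 to 194 CPM in Ishikawa, with 3 of the 5 above a median of 1 CPM in each line and DCN and LUM below it in both; its part in these differences was not tested.

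**Figure D4:**
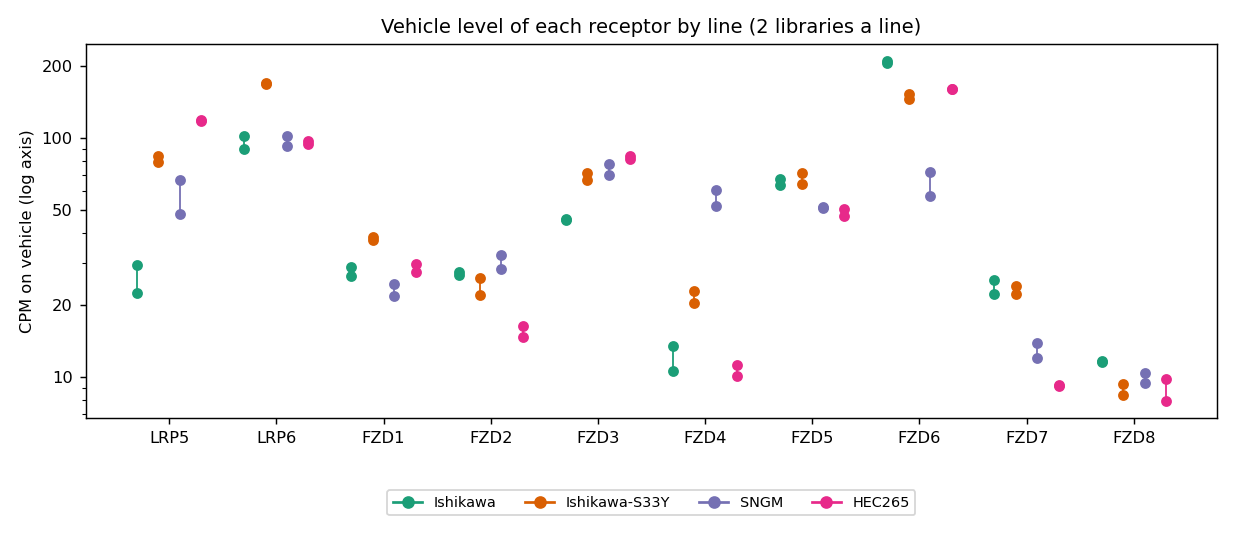
CPM of each receptor in the 2 vehicle libraries of each line, on a log axis, joined by a line and coloured by cell line. LRP5 is lowest in Ishikawa at 22.5 to 29.3 CPM, LRP6 highest in Ishikawa-S33Y at about 168 CPM, FZD4 highest in SNGM and FZD6 lowest there.

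Between the other pairs of lines on vehicle, 66.8% of all genes were called for SNGM against Ishikawa, 63.3% for HEC265 against Ishikawa, 60.8% for SNGM against Ishikawa-S33Y, 58% for HEC265 against Ishikawa-S33Y and 54.9% for HEC265 against SNGM. Over the 4 lines, LRP5 on vehicle ranked HEC265 (118 ± 0.59 CPM, SD, n = 2), Ishikawa-S33Y (81.7 ± 3.23), SNGM (57.3 ± 13.1) and Ishikawa (25.9 ± 4.82). Only the step from SNGM to Ishikawa passed the test between neighbours (1.11 ± 0.33 in log2, limma adjusted p = 0.00495), and it was lost without replicate 1 of Ishikawa (0.92, adjusted p = 0.0550) or replicate 2 of SNGM (0.88, adjusted p = 0.0669) and reversed to -0.74 (adjusted p = 0.180) with the length score as covariate. The step from HEC265 to Ishikawa-S33Y (0.53, limma adjusted p = 0.176) passed with median re-centring (0.71, adjusted p = 0.0313) and with the spread of those lines alone (adjusted p = 0.00492), and that from Ishikawa-S33Y to SNGM (SNGM minus Ishikawa-S33Y -0.52, adjusted p = 0.173) with the length score (-1.46, adjusted p = 2.24e-04). LRP6 was highest in Ishikawa-S33Y (168 ± 0.57 CPM, above SNGM at adjusted p = 8.01e-06), and the other lines lay between 95.1 and 97.0 CPM without a difference beyond their spread. FZD4 ranked SNGM (56.2 ± 6.07 CPM), Ishikawa-S33Y (21.6 ± 1.73), Ishikawa (12.02 ± 2.01) and HEC265 (10.6 ± 0.75), and all steps but the last passed. FZD6 was lowest in SNGM at 64.5 ± 10.3 CPM, below Ishikawa-S33Y at 149 ± 4.69 CPM (limma adjusted p = 6.95e-07).

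FZD7 stepped down from Ishikawa-S33Y (23.1 ± 1.29 CPM) to SNGM (12.9 ± 1.35) and again to HEC265 (9.18 ± 0.04). The last step (limma adjusted p = 0.0187) was lost without replicate 1 of SNGM (-0.35, adjusted p = 0.143) and without either replicate of HEC265 (-0.45 and -0.44, adjusted p = 0.0666 and 0.0730), and with median re-centring (-0.37, adjusted p = 0.0501) or quantile normalization (-0.25, adjusted p = 0.173). FZD2 was lowest in HEC265 at 15.5 ± 1.23 CPM and FZD3 lowest in Ishikawa at 45.4 ± 0.33 CPM, each below its next line (limma adjusted p = 0.00234 and 1.65e-04). No neighbouring lines differed beyond the test for FZD1, FZD5 or FZD8, though FZD1 in HEC265 against Ishikawa-S33Y (-0.40, limma adjusted p = 0.0536) passed in 6 of 14 alternatives, among them limma voom (-0.41, adjusted p = 0.0126).

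The 5 genes whose pattern over the 16 groups was most like that of LRP5, after each line was centred on its own mean, were ERBB2, MOV10, SCAMP4, L3MBTL2 and UBAC1. Their Pearson r was between 0.985 and 0.991 among 10422 ranked genes, a description over group means that share all 32 libraries and their depth. ERBB2, the HER2 receptor tyrosine kinase, went in Ishikawa-S33Y from 109 and 101 CPM on vehicle and 99.8 and 96.3 on paclitaxel to 51.2 and 43.6 on SM08502 and 37.9 and 40.1 on the combination. In HEC265 it went from 150.1 and 145 CPM on vehicle to 83.1 and 82.5 on SM08502. In Ishikawa its paclitaxel replicates 1 and 2 held 77.0 and 40.1 CPM, apart in the same direction as those of LRP5. MOV10, an RNA helicase, went from 25.3 and 26.0 CPM on vehicle to 15.5 and 15.3 on SM08502 in Ishikawa-S33Y. In SNGM its mean was 75.2 CPM on paclitaxel and 69.3 CPM on SM08502. Pearson r compares the shape of a pattern and not its size. Between SM08502 and paclitaxel the 5 genes differed by -0.73 (UBAC1) to -0.38 (MOV10) in log2 over the lines, against -1.52 for LRP5.

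Other genes around the receptors were taken from 5 lists, for SM08502 against paclitaxel in the mean over lines, where 18.8% of all genes were called higher and 14.2% lower. Of 18 tested Wnt ligands and secretion genes, 2 were higher and 5 lower (median -0.08). The lower ones included WNT5A (-0.52 ± 0.13, limma adjusted p = 0.00328), a ligand often linked to signalling without beta-catenin, which went in HEC265 from 68.0 to 30.8 CPM and in Ishikawa from 22.6 to 11.1 CPM but in SNGM from 1.12 to 1.62 CPM, and WNT7A (-0.45 ± 0.08, adjusted p = 1.41e-04), a ligand of the uterine epithelium, which went in Ishikawa-S33Y from 55.9 to 25.7 CPM and was below 1 CPM in SNGM and HEC265. Of 8 other Wnt receptors, none was higher and 2 were lower (median -0.16): FZD9 (-0.31 ± 0.08, adjusted p = 0.00660), and the kinase-like receptor RYK (-0.25 ± 0.09, adjusted p = 0.0341), whose call held in 12 of 25 alternatives and was lost without any 1 of 11 libraries, at adjusted p up to 0.102. FZD10 stayed at or below 2.62 CPM in every library.

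Of 12 tested antagonists, 1 was higher and 3 were lower (median -0.12). The lower ones included NOTUM (-0.44 ± 0.09, limma adjusted p = 7.81e-04), which removes the lipid from Wnt proteins. From paclitaxel to SM08502 it went from 18.8 to 11.1 CPM in HEC265 and from 2.84 to 1.05 CPM in Ishikawa-S33Y. In SNGM it went the other way, from 3.33 to 4.05 CPM, and in Ishikawa it was low in both groups (1.03 and 0.53 CPM). The higher antagonist was TRABD2A (0.33 ± 0.09, adjusted p = 0.00966), a protease that cleaves Wnt proteins. Of 12 genes of receptor turnover and agonists, 2 were higher and 2 lower (median -0.02). The R-spondin receptor LGR4 was lower (-0.33 ± 0.06, adjusted p = 1.97e-04), at 236 CPM on paclitaxel and 164 CPM on SM08502 in Ishikawa but 79.8 and 79.0 CPM in Ishikawa-S33Y. MESDC2, the chaperone that folds LRP5 and LRP6, was higher (0.28 ± 0.05, adjusted p = 1.28e-04), at 60.2 CPM on paclitaxel and 80.7 CPM on SM08502 in Ishikawa-S33Y. The chaperone was thus called in the opposite direction to LRP5.

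Of 18 genes of receptor-proximal signalling, 2 were higher and 4 lower (median -0.04). These included CAV1 (-0.63 ± 0.06, limma adjusted p = 6.06e-08), a caveolar protein of the receptors' endocytic route, and the casein kinase CSNK1D (-0.53 ± 0.09, adjusted p = 1.43e-04).

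**Figure D5:**
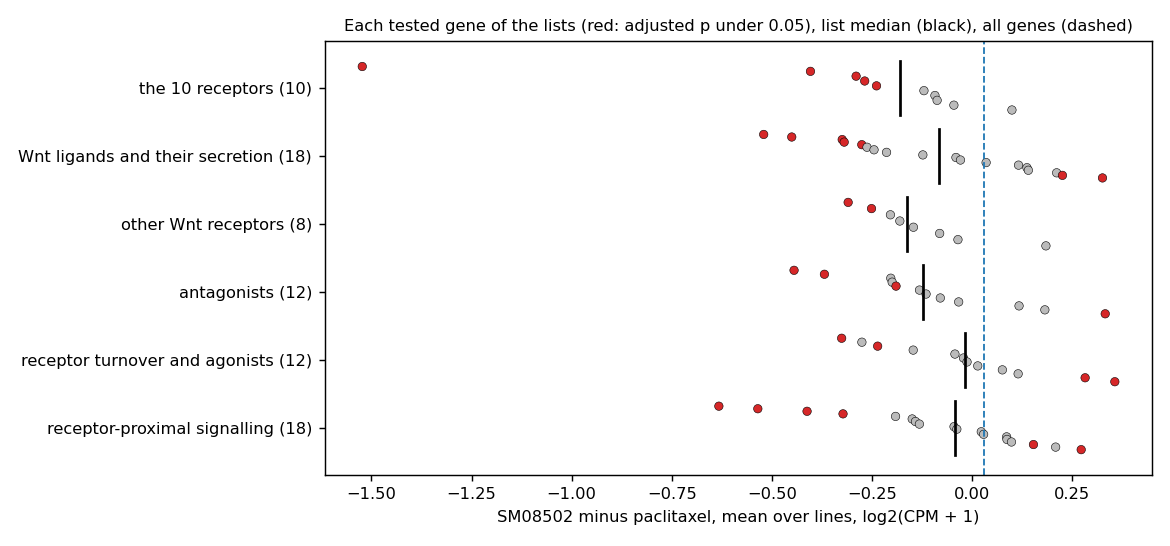
Difference in log2(CPM + 1) between SM08502 and paclitaxel, averaged over lines, for the 10 receptors and each tested gene of the 5 lists (number in brackets); points are genes, red where the adjusted p is under 0.05, black bars are list medians and the dashed line the median of all genes at 0.03. LRP5 at -1.52 lies furthest left, the median of the 10 receptors is -0.18 (-0.12 over the 9 other than LRP5), and the medians of the 5 lists lie between -0.16 and -0.02.

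Between Ishikawa-S33Y and Ishikawa on vehicle, where 20% of all genes were called higher and 28.2% lower, 8 of 18 ligands were higher and 2 lower, 3 of 8 other receptors higher and 1 lower, and 8 of 12 antagonists higher and 1 lower. Among these, WNT2B went from 1.50 ± 0.06 in Ishikawa to 34.2 ± 3.27 CPM in Ishikawa-S33Y (SD, n = 2; limma adjusted p = 7.63e-07), the adhesion receptor ADGRA2 from 0.72 ± 0.37 to 8.01 ± 0.18 CPM (adjusted p = 5.80e-07) and DKK3 from 15.2 ± 0.12 to 45.2 ± 0.96 CPM (adjusted p = 6.09e-05). Of 12 turnover genes, 5 were higher and 4 lower, with LGR4 going from 234 ± 0.03 to 76.9 ± 4.13 CPM (adjusted p = 7.66e-10). Of 18 receptor-proximal genes, 5 were higher and 4 lower, with AMER1, a membrane scaffold for LRP6 phosphorylation, going from 3.91 ± 1.09 to 13.1 ± 0.59 CPM (adjusted p = 6.80e-06). The counts of 5 higher and 4 lower among the 18 receptor-proximal genes lie near the shares of all genes.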

How the data were processed

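RNA was sequenced after ribosomal RNA depletion (FastSelect, KAPA mRNA HyperPrep, NovaSeq), per the labels' protocols. The authors deposited log10(CPM + 1) values for 35238 genes in 32 libraries. The submitters' processing notes name bcl2fastq, kallisto, STAR and GRCh38, without roles or versions. The strand of counting is not given in the sources used here, and splicing tables were not analysed here.

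Values were turned back into CPM. Whole reads were recovered for 100% of values, within 0.1 read. Differences were tested two-sided on log2(CPM + 1), which understates changes of low genes, with limma 3.58.1 in R 4.3.3: 16 group means over all 32 libraries, an intensity trend, 16 residual and 4.9 prior degrees of freedom, and 17011 genes above 1 CPM in at least 2 libraries. P-values were Benjamini-Hochberg adjusted over those genes at 0.05, and intervals are 95%. The fit was tested on simulated data.

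Named genes were the 10 receptors, LRP5L, from each list the 2 largest called differences between SM08502 and paclitaxel and the largest between Ishikawa-S33Y and Ishikawa (mean log2 level of at least 2), and the 5 genes most like LRP5. PRSS23 was added because it overlaps FZD4, after its values were seen. A further gene list is not reported here. Members and lists were chosen with earlier results of these data known. Alternatives changed the filter, pseudocount (0.1), scaling, trend, spread, replicate block, length score or test (limma voom on recovered reads), or left out libraries. Leaving out both shallow libraries was added after seeing the data.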

Additional observations from a re-analysis of the deposited data

Results flagged for a closer look

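For LRP5, SM08502 minus paclitaxel was 1.59 higher in SNGM than in Ishikawa-S33Y by an interaction term (log2, SE 0.46, limma adjusted p = 0.0384). That call held in only 7 of 18 alternatives, and the lowest value among them was 1.27. Both libraries of SM08502 lay below both of paclitaxel in both lines. The doses differed by line, and their part was not tested.

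For FZD2, SM08502 minus paclitaxel was lower in HEC265 than in SNGM by an interaction term of -0.91 (log2, SE 0.22, limma adjusted p = 0.0433). That call held in only 8 of 18 alternatives, with values from -0.99 to -0.83. Both SM08502 libraries were below both paclitaxel libraries in HEC265 and above them in SNGM. In SNGM the mean was 30.7 CPM on SM08502, 30.3 CPM on vehicle and 23.3 CPM on paclitaxel. The doses differed between these lines too, and their part was not tested.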

How the results depend on the processing

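Over 111 results and 2013 alternative values, 1827 were rated unchanged, 123 lost the call, 19 gained it, 29 values or counts without a test of their own moved and 15 changed sign. A tested difference was rated unchanged if it kept its direction and side of the threshold. Counts of calls were rated unchanged also after a limited shift, and untested LRP5 values where they stayed within their SE. LRP5 between SM08502 and paclitaxel kept its call in all 25 alternatives in the mean over lines (-1.67 to -1.34; -1.67 to -1.37 without 1 library). Without 1 library it ranged from -2.08 to -0.89 in Ishikawa, -2.46 to -2.26 in Ishikawa-S33Y, -1.08 to -0.44 in SNGM and -1.54 to -1.44 in HEC265. The Ishikawa call was lost with the spread of that line alone (-1.48), and SNGM gained one with limma voom (-0.78) and with the length score (-0.73). The causes were not tested.

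In the means over lines and without 1 library, 4 to 5 of the 10 receptors were called between SM08502 and paclitaxel, 5 to 6 of 9 between SM08502 and vehicle, and 0 of 9 between paclitaxel and vehicle. Between Ishikawa-S33Y and Ishikawa on vehicle 4 to 5 of 10 were called. By line, SM08502 against paclitaxel gave, without 1 library, 0 to 5 calls in Ishikawa, 0 to 1 in HEC265, 1 in Ishikawa-S33Y and 0 in SNGM. With limma voom 4 were called in SNGM and in HEC265. Shares of all genes called under these alternatives are not given here.

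With the length score as covariate the sign changed for LRP5 in SNGM minus Ishikawa (-0.74) and HEC265 minus Ishikawa-S33Y (-0.0075), FZD6 in HEC265 minus Ishikawa (0.11), FZD5 in SM08502 minus paclitaxel (0.043) and minus vehicle (0.038), and LRP5L in SM08502 minus paclitaxel (-0.0037). Without 1 library it changed for FZD5 in SM08502 minus paclitaxel (0.0096 without replicate 1 of paclitaxel and 0.011 without replicate 2 of SM08502 in Ishikawa) and minus vehicle (0.0014 without the latter). It changed for FZD3 in paclitaxel minus vehicle (-0.014 without replicate 1 of paclitaxel in Ishikawa, -0.0013 without replicate 2 of vehicle and -0.0014 without replicate 1 of paclitaxel in SNGM). It changed for LRP5L (-0.028 without replicate 1 of SM08502 in SNGM, -0.0007 and -0.0041 without replicate 1 of paclitaxel and replicate 2 of SM08502 in HEC265). Over the libraries left out in turn, these values ran from -0.20 to 0.011 for FZD5 against paclitaxel, from -0.21 to 0.0014 against vehicle, from -0.014 to 0.049 for FZD3, and from -0.028 to 0.10 for LRP5L. The causes were not tested.

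Replicate numbers did not pair the libraries alike over all treatments. Over 6083 genes, correlations of same-numbered deviations ran from -0.65 to 0.84 in SNGM, -0.57 to 0.86 in Ishikawa, -0.15 to 0.33 in HEC265 and -0.12 to 0.14 in Ishikawa-S33Y. Same-numbered libraries of some treatments thus deviated together in SNGM and Ishikawa, and those of others deviated in opposite directions. With the replicate block, LRP5 between SM08502 and paclitaxel stayed at -1.52 (limma adjusted p = 3.46e-06), and 5708 genes were called in place of 5625. The block ended the calls of LRP5 in SNGM minus Ishikawa-S33Y (1.59, limma adjusted p = 0.0504) and FZD3 in HEC265 minus Ishikawa-S33Y on vehicle (0.26, limma adjusted p = 0.0684), and FZD1 gained a call there (-0.40, limma adjusted p = 0.0273). Depth limits the 2 shallow combination libraries most, where LRP5 was read as few as 24 times.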
